A study of Mus musculus with 4 samples.

Results

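Collagen and laminin chains are described here in mouse liver after an extract of Gynura segetum, a plant that contains pyrrolizidine alkaloids. The chains were taken by gene symbol: Col, a number, a and a number for collagens, and Lama, Lamb or Lamc with a digit for laminins. The rule found 55 genes among the 25239 in each count table, 44 collagens and 11 laminins. Of these, 38 had at least 10 counts in at least 2 libraries: 8 fibrillar collagen chains, 18 basement membrane chains (type IV, XV and XVIII collagens and laminins) and 12 other collagen chains.

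The series holds 4 liver RNA libraries from C57BL/6 mice aged 6 to 8 weeks. In the control group (2 libraries) the mice received saline, and in the extract group (2 libraries, labelled PAs) they received the Gynura segetum extract, concentrated to 2 g/mL, into the stomach at 30 g/kg per day for 3 weeks. Both groups share the strain, and no genetic change is named for either. Whether each library is a separate mouse is not stated, so every p-value reflects the spread between the samples at hand, and that spread may be technical.

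Collagens are triple helices of 3 alpha chains. The fibrillar types I, III and V form the banded fibres of portal tracts and scars, and in liver they are made mainly by stellate cells and portal fibroblasts. Basement membranes are sheets built on a type IV collagen network and on laminins, which are cross-shaped trimers of an alpha, a beta and a gamma chain. Healthy sinusoids hold little organised basement membrane, whereas portal vessels and bile ducts have a full one. Endothelial cells, stellate cells and bile duct cells all make such chains, and hepatocytes are a known source of type XVIII collagen, whose end fragment is endostatin.

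Reads counted to genes came to between 32215268 and 49711750 per library, and the 38 chains took between 0.127% and 0.184% of them. Levels are CPM, the counts of a gene relative to library size, scaled by the trimmed mean of M values, so 1 count is worth 0.0208 to 0.0337 CPM depending on the library. The tissue label was met by its markers: the 10 hepatocyte markers summed to 164000 and 176000 CPM in the control libraries and to 109000 and 116000 CPM in the extract libraries. In bulk liver, fewer cells of a type and less RNA per cell cannot be told apart, here or in any result below.

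Among the basement membrane chains, Lama5 rose 4.01-fold in the extract livers and was the sole chain of the 38 to pass the test. Lama5 encodes laminin alpha 5, the alpha chain of the laminins of mature vessel and epithelial basement membranes. Col4a2, Col4a1, Lamc1 and Lama4 were also higher in both extract libraries than in both control libraries, by 1.62 to 2.89-fold, but did not pass. Lamb3, Lamc3, Lama1 and Col18a1 were lower in both extract libraries and did not pass either. Of the 18 basement membrane chains, 5 were thus higher and 4 lower without overlap, beside 27.6% and 26.7% of all genes. The class therefore did not separate clearly more often than genes in general. Fibrillar chains gave 0 calls in either direction, and the libraries of a group differed several-fold in Col1a1, Col3a1 and Col1a2.

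The promoter windows of the called chain and of the type IV pair are shown because Col4a1 and Col4a2, whose levels lay higher together, share a single start region. Each window comes from a RefSeq promoter table (GRCm38.p6, the assembly of mm10) and runs from 250 bases before to 50 after the start used there, 5′ to 3′ on the gene's strand, with capitals marking matches to CCAAT or GGGCGG on either strand. Col4a1 lies on the minus strand at chr8:11312777-11313076, Col4a2 on the plus strand at chr8:11312555-11312854 and Lama5 on the minus strand at chr2:180225810-180226109.
Col4a1: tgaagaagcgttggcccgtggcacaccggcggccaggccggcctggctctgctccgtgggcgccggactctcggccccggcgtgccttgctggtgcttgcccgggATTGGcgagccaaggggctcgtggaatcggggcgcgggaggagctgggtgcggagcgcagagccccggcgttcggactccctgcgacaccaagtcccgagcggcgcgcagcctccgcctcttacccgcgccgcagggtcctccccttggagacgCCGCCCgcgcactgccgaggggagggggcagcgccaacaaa
Col4a2: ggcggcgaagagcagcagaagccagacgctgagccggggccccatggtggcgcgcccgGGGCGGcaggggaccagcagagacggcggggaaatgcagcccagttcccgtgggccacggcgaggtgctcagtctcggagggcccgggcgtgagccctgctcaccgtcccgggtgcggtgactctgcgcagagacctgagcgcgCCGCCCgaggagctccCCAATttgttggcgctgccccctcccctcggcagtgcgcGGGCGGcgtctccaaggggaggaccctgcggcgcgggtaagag
Lama5: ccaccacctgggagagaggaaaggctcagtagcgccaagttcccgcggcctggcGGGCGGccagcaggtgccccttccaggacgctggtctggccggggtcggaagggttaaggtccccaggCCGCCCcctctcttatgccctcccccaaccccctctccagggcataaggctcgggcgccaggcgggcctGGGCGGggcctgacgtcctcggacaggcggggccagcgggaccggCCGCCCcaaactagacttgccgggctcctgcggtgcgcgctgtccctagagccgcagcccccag

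In that table the starts of Col4a1 (11312826) and Col4a2 (11312805) lie 21 bases apart on opposite strands. The starts used for Col4a1 and Lama5 lie inside the outer bounds of these genes given below, which reach further upstream. The Col4a1 and Col4a2 windows share 78 bases with 1 GGGCGG match and 0 CCAAT matches. The Col4a1 window holds 1 match to CCAAT and 1 to GGGCGG, the Col4a2 window 1 and 3, and the Lama5 window 0 and 4. No match in these windows overlapped another. The letters TATAAA, the letters CAGACA and the letters TGACTCA were searched as well, on both strands, with 0 matches in the 3 windows. RefSeq windows were matched for 27 of the 38 chains (30 windows). GGGCGG was found in 63.3% of these and in 35.7% of all 32851 windows of the table, and CCAAT in 30% and 37.4%. TATAAA was found in 10% against 13.6%, CAGACA in 26.7% against 21% and TGACTCA in 3.33% against 5.2%. These are letter matches and not known binding sites, and the shares were not matched for GC content. GC content was 72.7% to 74.0% in the 3 windows shown.

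Lama5 (chromosome 2, 180176373 to 180225904) measured 2.33 and 4.44 CPM in control replicates 1 and 2 and 15.8 and 11.1 CPM in extract replicates 1 and 2, from 112, 132, 681 and 531 counts. Both extract libraries were above both controls, and the lower extract value stood well clear of the higher control value. The mean was 3.39 ± 1.49 CPM (SD, n = 2) in controls and 13.5 ± 3.28 CPM (SD, n = 2) with extract. The log2 fold change was 2.00 with a standard error of 0.36, and the adjusted p was 0.0222 by edgeR's quasi-likelihood test. With extract replicate 1 left out, the log2 fold change was 1.71 and Lama5 was not called by edgeR. That fit holds a single extract library and takes its spread from the control pair. It therefore cannot show whether the call rests on extract replicate 1. The other leave-one-out fits kept the call, with an adjusted p of at most 0.0288 in edgeR.

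Over all 13963 genes tested, edgeR called 4.91% higher and 3.63% lower with extract, at an adjusted p under 0.05. Of the chains, 1 of 38 was called higher and 0 lower. At an unadjusted p under 0.05 by edgeR, 6 chains were higher and 2 lower, or 15.8% and 5.26%, against 12.3% and 11.2% of all genes. DESeq2 called 4 higher and 2 lower, where it called 7.11% and 6.29% of all genes. Groups did not overlap for 8 chains with the extract libraries higher and for 5 with them lower. Over all genes such separation was seen in 27.6% and 26.7%, so the chains did not separate more often than genes in general. The median log2 fold change was 0.10 over the basement membrane chains, -0.01 over the fibrillar chains and -0.18 over the others, against -0.005 over all genes tested. The fibrillar median was 0.51 without control replicate 1 and -0.62 without control replicate 2. Scaling by total counts instead moved the median of all genes to 0.16 and the calls from 686 higher and 507 lower (57.5% higher) to 940 and 338 (73.6% higher), with Lama5 still the sole chain called. Under that scaling 21 of the 38 chains had a log2 fold change above 0, against 18 in the reported fit.

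**Figure D1:**
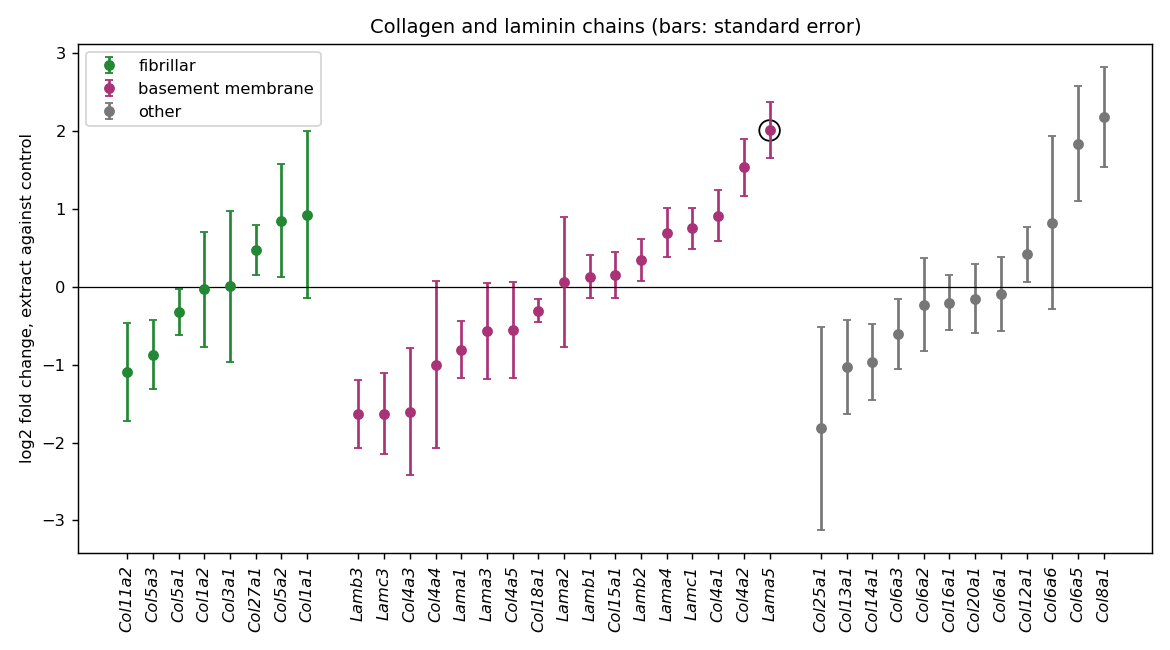
Log2 fold change of extract against control for 37 chains (points) with its standard error (bars), ordered by size within fibrillar, basement membrane and other collagens. The ringed point is Lama5 at 2.00, the sole chain with an adjusted p under 0.05.

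The type IV network chains came next in the basement membrane class. Col4a1 (chromosome 8, 11198423 to 11312889) and Col4a2 (chromosome 8, 11312805 to 11449287) encode the alpha 1 and alpha 2 chains, which assemble as 2 alpha 1 chains with 1 alpha 2 chain into the type IV collagen of nearly every basement membrane. Col4a2 measured 49.0 and 23.1 CPM in controls and 110 and 99.1 CPM with extract. Col4a1 measured 90.2 and 45.1 CPM in controls and 134 and 121 CPM with extract. Both genes were lowest in control replicate 2 and highest in extract replicate 1, with no overlap between the groups. The log2 fold change was 1.53 (standard error 0.36) for Col4a2 and 0.91 (standard error 0.33) for Col4a1. Neither passed in edgeR, at adjusted p of 0.0702 and 0.176, and DESeq2 called both higher. The outer bounds of the 2 genes overlap by 85 bases at their starts, and no source names the strand setting of the counting, so reads from the overlap cannot be told apart.

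The remaining type IV chains form the specialised networks of kidney and other sites. Col4a5 measured 9.09 and 3.74 CPM in controls and 6.45 and 2.37 CPM with extract. Col4a3 measured 2.90 and 0.57 CPM in controls and 0.42 and 0.73 CPM with extract. Col4a4 had 59 and 7 counts in controls and 28 and 5 with extract. In each of these 3 chains the control libraries lay 2.43 to 5.22 times apart and the groups overlapped, with adjusted p between 0.303 and 0.667 in edgeR.

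Among the laminins of vessels, Lamc1 and Lama4 lay higher with extract. Lamc1 (chromosome 1, 153218922 to 153332786), the gamma 1 chain found in most laminins, measured 35.3 and 20.3 CPM in controls and 49.8 and 44.0 CPM with extract. Lama4 (chromosome 10, 38965515 to 39110188), the alpha chain of endothelial laminin, measured 7.40 and 4.28 CPM in controls and 10.8 and 8.12 CPM with extract. Both lay higher in both extract libraries, with log2 fold changes of 0.75 and 0.69 (standard errors 0.26 and 0.32). Neither passed in edgeR, at adjusted p of 0.152 and 0.25.

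The beta chains overlapped between the groups. Lamb1, the widespread beta 1 chain, measured 20.6 and 12.1 CPM in controls and 20.1 and 15.7 CPM with extract, and its log2 fold change was 0.13 (standard error 0.28). Lamb2, the beta 2 chain of mature vessel and synaptic laminins, measured 9.63 and 7.14 CPM in controls and 12.8 and 8.46 CPM with extract, and its log2 fold change was 0.34 (standard error 0.27). In both genes extract replicate 2 lay between the control libraries. Their adjusted p in edgeR were 0.841 and 0.527.

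Lamb3 and Lamc3 lay lower with extract. Lamb3 (chromosome 1, 193294353 to 193343878), the beta chain of the epithelial anchoring laminin, measured 2.06 and 2.52 CPM in controls and 0.719 and 0.756 CPM with extract, from 99, 75, 31 and 36 counts. Lamc3 (chromosome 2, 31887281 to 31949083), the gamma 3 chain, measured 2.44 and 3.13 CPM in controls and 1.25 and 0.546 CPM with extract, from 117, 93, 54 and 26 counts. Every extract library was below every control library in both genes, and both log2 fold changes were -1.63 (standard errors 0.44 and 0.52). Neither passed in edgeR, at adjusted p of 0.0731 and 0.114, and DESeq2 called both lower. Lama3, an alpha chain that pairs with Lamb3, had 56 and 18 counts in controls and 23 and 32 with extract, and overlapped between the groups, with a log2 fold change of -0.57.

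Lama1 measured 11.5 and 5.52 CPM in controls and 4.71 and 5.08 CPM with extract. This alpha chain of embryonic laminin was lower in both extract libraries, but the gap to control replicate 2 was small, and the log2 fold change of -0.81 (standard error 0.36) did not pass in edgeR, at an adjusted p of 0.245. Lama2, the muscle alpha chain, measured 6.63 and 1.11 CPM in controls and 5.19 and 3.02 CPM with extract. Its control libraries lay 5.97 times apart and enclosed both extract values.

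Col18a1 stood far above the other chains. Per kilobase of merged exons, its mean level was 156 CPM per kilobase in controls and 126 with extract, and the next chains in controls were Col14a1 at 16.3 and Col4a1 at 9.06. With extract, Col4a1 at 17.1 and Col4a2 at 15.8 came after Col18a1, and Col14a1 stood at 8.35. In CPM, Col18a1 measured 1152 and 1038 in controls and 884 and 882 with extract. Both extract libraries were lower and nearly equal, and the log2 fold change was -0.31 (standard error 0.15), with an adjusted p of 0.263 in edgeR. Col15a1, the related chain of vessel basement membranes, measured 5.48 and 5.72 CPM in controls and 7.63 and 4.79 CPM with extract, and the extract libraries lay on either side of the controls.

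**Figure D2:**
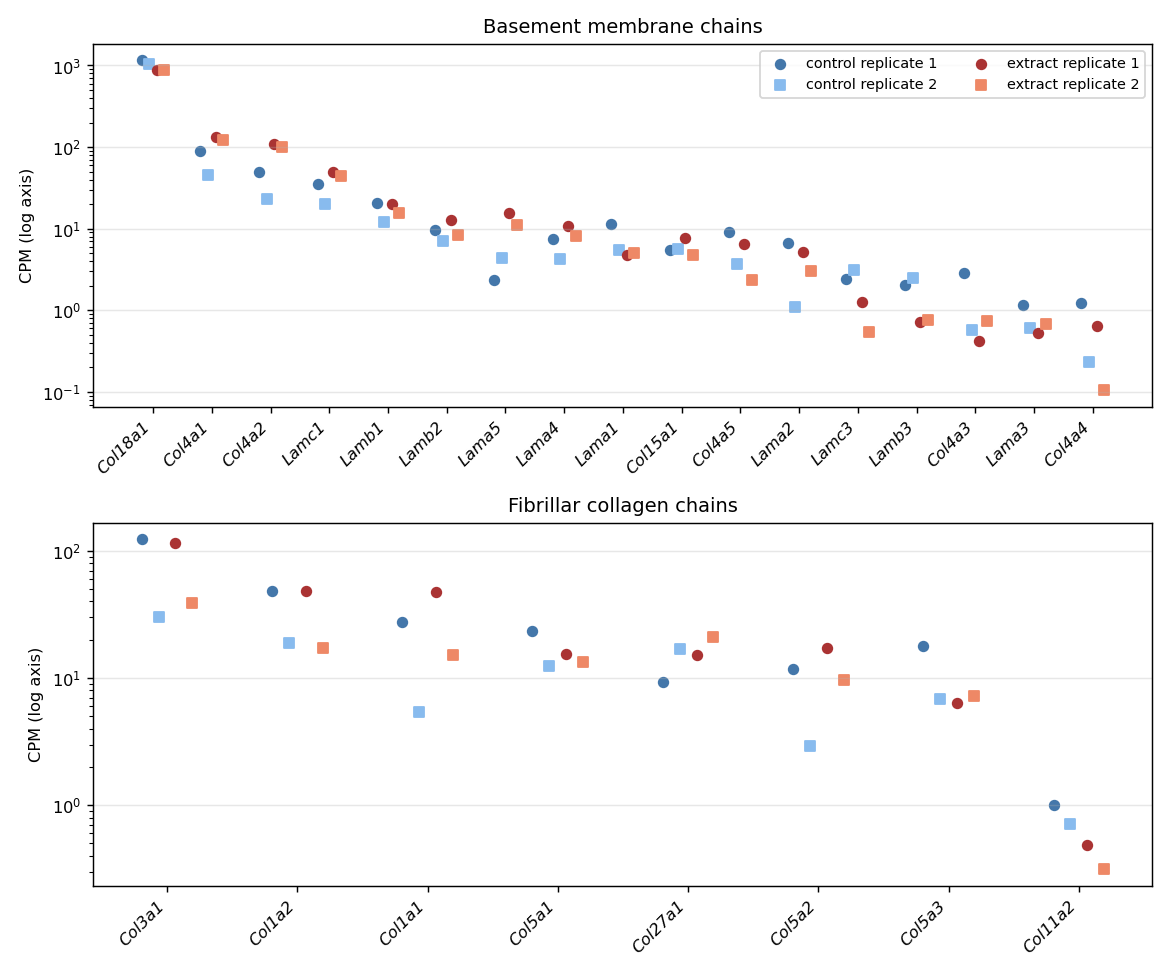
Level in CPM (log axis) of 17 basement membrane chains (top) and the 8 fibrillar chains (bottom) in the 4 libraries, with controls in blue and extract in red. Lama5, Col4a1, Col4a2, Lamc1 and Lama4 show both extract points above both control points, whereas in Col3a1 and Col1a2 the points pair by replicate number.

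Ratios between chains within a library do not depend on library size. Col4a2 had 0.543 counts per Col4a1 count in control replicate 1 (95% exact interval 0.516 to 0.571) and 0.513 in control replicate 2 (0.467 to 0.563). In the extract libraries the ratio was 0.817 (0.786 to 0.849) and 0.822 (0.79 to 0.854). The extract libraries were 1.55 times the controls, 0.528 ± 0.0213 against 0.819 ± 0.00339 (SD, n = 2 each), and the intervals of the groups did not meet. The intervals cover counting error only, and with 2 libraries against 2 the smallest 2-sided exact permutation p is 0.333, so the ratio was given no test. The log2 difference between the fold changes of the 2 genes was 0.62, and 0.59 with a correction for GC content, in which Col4a2 (60.6%) and Col4a1 (57.7%) differ.

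Ratios among laminin chains were added after their values were seen. Lamb1 had 0.585 and 0.596 counts per Lamc1 count in controls and 0.404 and 0.357 with extract, lower in both extract libraries. Lama4 kept near 0.21 counts per Lamc1 count, at 0.21 and 0.21 in controls and 0.218 and 0.185 with extract, although each gene alone differed more than 1.7-fold between the control libraries. Lama5 had 0.0662 and 0.219 counts per Lamc1 count in controls and 0.317 and 0.253 with extract. Its ratio to Lama4 was 0.315 and 1.04 in controls and 1.46 and 1.37 with extract. Control replicate 1 was thus the lowest library for Lama5 against either partner.

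**Figure D3:**
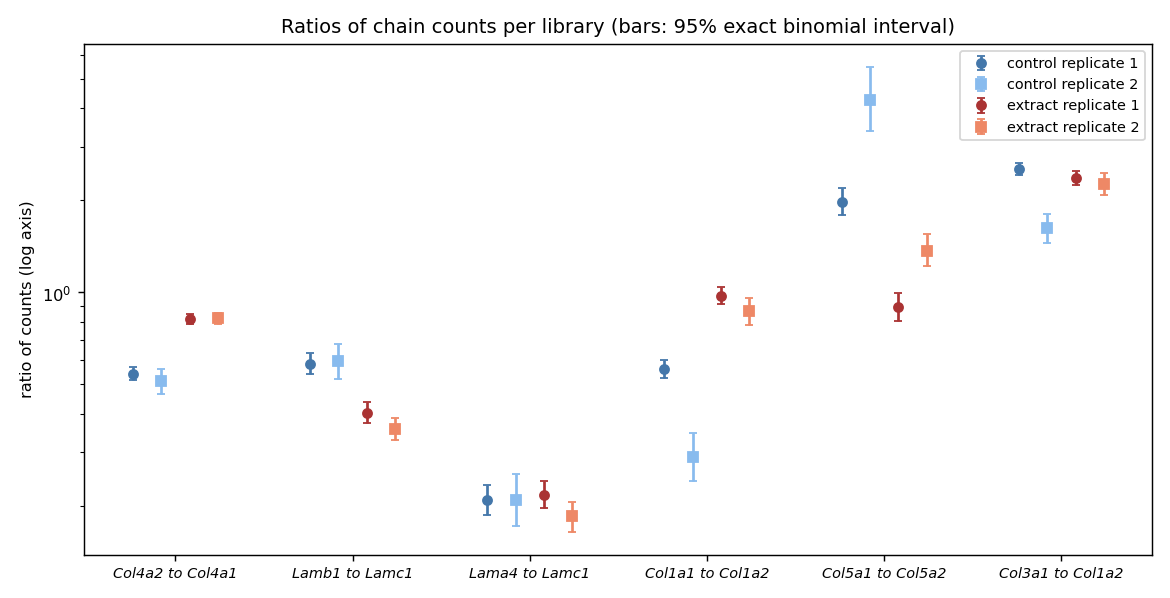
Count of the first chain per count of the second (log axis) in each library, with 95% exact binomial intervals that cover counting error only. The extract libraries sit above the controls for Col4a2 to Col4a1 (0.817 and 0.822 against 0.543 and 0.513) and below them for Lamb1 to Lamc1 (0.404 and 0.357 against 0.585 and 0.596).

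The fibrillar chains gave 0 calls of 8 in each direction in edgeR, beside 4.91% and 3.63% of all genes. At an unadjusted p under 0.05 by edgeR there were 0, beside 12.3% higher and 11.2% lower of all genes. DESeq2 called 0, beside 7.11% and 6.29% of all genes. At these shares, 0 calls of 8 do not set the fibrillar chains apart from genes in general. Col3a1 (chromosome 1, 45311538 to 45349706), the type III chain, measured 124 and 30.2 CPM in controls and 116 and 39.3 CPM with extract. Col1a2 (chromosome 6, 4505618 to 4541543), the alpha 2 chain of type I collagen, measured 48.7 and 18.7 CPM in controls and 48.8 and 17.3 CPM with extract. The replicate 1 libraries of both groups lay close together and above both replicate 2 libraries, so the libraries sorted by number and not by group. The log2 fold changes were 0.01 (standard error 0.97) and -0.03 (standard error 0.74), and their signs turned under other scalings.

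Col1a1 (chromosome 11, 94936224 to 94953042), the alpha 1 chain of type I collagen, measured 27.4 and 5.42 CPM in controls and 47.7 and 15.1 CPM with extract. Extract replicate 2 lay between the controls, and the log2 fold change of 0.92 had a standard error of 1.07 and an adjusted p of 0.695 in edgeR. Its ratio to Col1a2 was 0.562 (0.525 to 0.602) and 0.29 (0.241 to 0.346) in controls and 0.977 (0.919 to 1.04) and 0.869 (0.785 to 0.962) with extract. Both extract libraries thus held more Col1a1 per Col1a2 than both controls, and the intervals of the control libraries did not meet each other either. The log2 difference was 0.96, and 0.93 with the GC correction.

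Type V chains, which set fibril diameter, were uneven. Col5a2 measured 11.8 and 2.93 CPM in controls and 17.2 and 9.70 CPM with extract, and extract replicate 2 lay below control replicate 1. Col5a1 measured 23.4 and 12.5 CPM in controls and 15.4 and 13.3 CPM with extract, with both extract libraries between the controls. Col5a3 measured 17.9 and 6.90 CPM in controls and 6.33 and 7.28 CPM with extract, and control replicate 1 alone stood high. Their log2 fold changes of 0.85, -0.33 and -0.88 did not pass in edgeR, at adjusted p of 0.577, 0.583 and 0.315. Col5a1 per Col5a2, a ratio added after its values were seen, was 1.98 and 4.28 in controls and 0.897 and 1.37 with extract.

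The last fibrillar chains were Col27a1 and Col11a2. Col27a1 measured 9.32 and 17.0 CPM in controls and 15.1 and 21.2 CPM with extract, and was the sole fibrillar chain that was lower in replicate 1 of both groups. Col11a2 had 48 and 21 counts in controls and 21 and 15 with extract, and its CPM was lower in both extract libraries. Adjusted p in edgeR were 0.458 and 0.361.

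The spread within a group bears on all these chains. Summed fibrillar CPM was 263 and 94.7 in controls and 267 and 124 with extract, so replicate 1 stood above replicate 2 in both groups. Of the 38 chains, 29 were higher in control replicate 1 than in control replicate 2, 30 were higher in extract replicate 1 than in extract replicate 2, and 24 were higher in both. Over all 13963 genes tested the same counts were 7394, 7051 and 4425. The median ratio of replicate 1 to replicate 2 was 1.92 in controls and 1.38 with extract over the chains, against 1.02 and 1 over all genes. Among fibrillar chains it was 2.6 and 1.66, and among basement membrane chains 1.73 and 1.31. Col1a1 differed 5.05-fold between the controls and 3.16-fold between the extract libraries, and Col3a1 4.09-fold and 2.95-fold. The lobe or region of liver sampled is not named in the labels.

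Markers of several cell types showed the same split by replicate number. Over all genes tested, 4425 of 13963 were higher in replicate 1 of both groups. Of 11 portal fibroblast markers, 10 were higher in replicate 1 of both groups, with median ratios of 1.54 in controls and 3.06 with extract. Eln, which encodes elastin, measured 10.4 and 4.95 CPM in controls and 10.4 and 4.83 CPM with extract, close to the pattern of Col1a2. Of 8 smooth muscle markers, 6 were higher in replicate 1 of both groups, with median ratios of 1.82 and 1.69, and Myh11, a smooth muscle myosin, measured 9.73 and 1.92 CPM in controls and 12.2 and 3.46 CPM with extract. Of 10 hepatocyte markers, 1 was higher in replicate 1 of both groups. Of 17 quiescent stellate cell markers, 9 were higher in replicate 1 of both groups, with median ratios of 1.41 and 1.07. It held for 7 of 11 activated stellate cell, 8 of 11 vascular endothelial, 5 of 7 mesothelial and 5 of 8 cholangiocyte markers. It also held for 9 of 12 collagen and laminin receptors and 9 of 12 other basement membrane proteins. Fewer followed among sinusoidal endothelial (5 of 12), Kupffer cell (3 of 10) and T, B and NK cell markers (3 of 9). The part of these cells in the spread of the fibrillar chains was not tested.

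**Figure D4:**
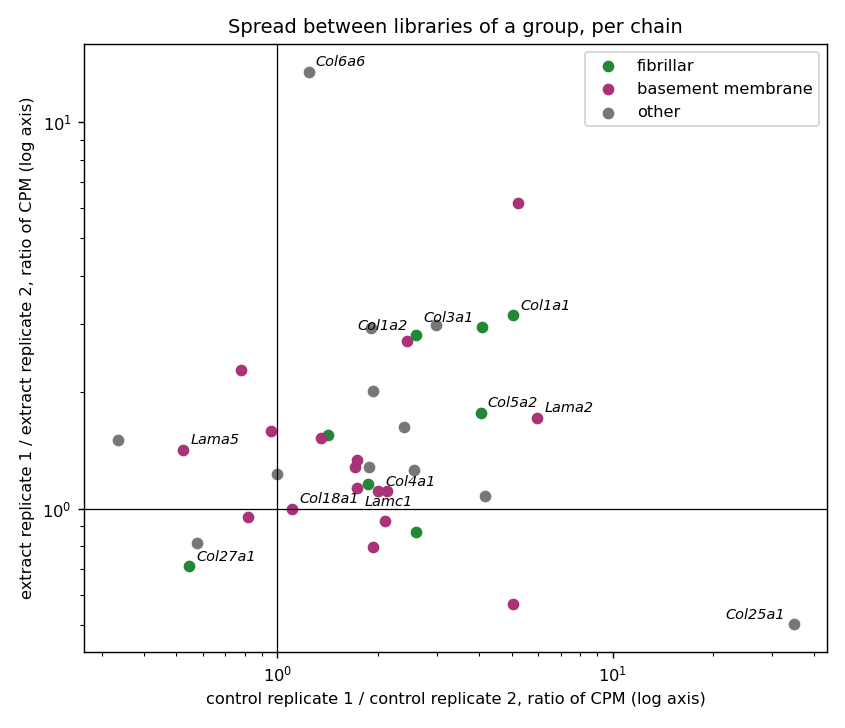
Ratio of replicate 1 to replicate 2 in CPM for 37 chains, in controls (horizontal, log axis) and with extract (vertical, log axis), with lines at a ratio of 1. Most points lie in the upper right, 24 of 37, and Col1a1 sits at 5.05 and 3.16.

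Other collagens gave 0 calls of 12 in edgeR, where 2 were higher and 0 lower at an unadjusted p under 0.05, beside 12.3% and 11.2% of all genes. Col8a1 (chromosome 16, 57624256 to 57754737), a short-chain network collagen of vessel walls, had 47 and 7 counts in controls and 128 and 131 with extract, or 0.980 and 0.236 CPM against 2.97 and 2.75 CPM. The extract libraries were close to each other and above both controls. The log2 fold change of 2.18 (standard error 0.64) was the highest of all 38 chains, with an adjusted p of 0.0953 in edgeR and 0.0133 in DESeq2. Col6a5, a type VI chain, measured 1 and 0.337 CPM in controls and 3.69 and 1.24 CPM with extract, higher in both extract libraries, with an adjusted p of 0.196 in edgeR. Col12a1, a fibril-associated chain, measured 2.04 and 2.05 CPM in controls and 3.01 and 2.46 CPM with extract, and its log2 fold change of 0.42 had an adjusted p of 0.55 in edgeR.

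The main type VI chains, which build beaded microfibrils around cells, overlapped between the groups. Col6a1 measured 21.1 and 8.85 CPM in controls and 17.4 and 10.7 CPM with extract. Col6a2 measured 12.2 and 6.36 CPM in controls and 11.8 and 4.03 CPM with extract, and Col6a3 18.4 and 9.56 CPM against 12.3 and 6.15 CPM. Their log2 fold changes were -0.10 (0.065 with total counts), -0.23 and -0.60, and each was higher in replicate 1 of both groups. Col6a2 per Col6a1 was 0.577 and 0.719 in controls and 0.677 and 0.376 with extract, so this ratio overlapped as well. Col6a3 per Col6a1, added after its values were seen, was 0.874 and 1.08 in controls and 0.707 and 0.575 with extract.

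Col14a1, a fibril-associated chain and the second most abundant chain per length in controls, measured 164 and 64.2 CPM in controls and 65.3 and 51.8 CPM with extract. Control replicate 1 alone stood high, and the log2 fold change of -0.96 (standard error 0.49) had an adjusted p of 0.343 in edgeR. Col13a1, a transmembrane collagen, measured 1.25 and 3.74 CPM in controls and 1.46 and 0.965 CPM with extract, with control replicate 2 alone high. Col16a1 and Col20a1 overlapped with log2 fold changes of -0.20 and -0.15.

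A few chains lay near the count rule. Col25a1 had 56, 1, 5 and 11 counts in control replicates 1 and 2 and extract replicates 1 and 2, and Col6a6 had 18, 9, 49 and 4. Both just met the rule, and neither passed in edgeR, at adjusted p of 0.473 and 0.724. Just outside it, Col23a1, Col24a1 and Col4a6 reached at most 22, 18 and 22 counts in any library. Of the 17 chains below the rule, 4 had 0 counts in all libraries, namely Col2a1, Col9a1, Col19a1 and Col26a1, and 0 counts allow up to 3 counts, or 0.0625 to 0.101 CPM depending on the library. All 38 chains that met the rule were tested, 34 of them had 10 counts in every library, and 0 met it through a single group.

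Leaving out either control library or extract replicate 1 changed the calls among the chains, whereas no change of scaling did. Without control replicate 1, edgeR called 10 chains higher (Col4a1, Col4a2, Col5a2, Col6a5, Col8a1, Lama2, Lama4, Lama5, Lamb1 and Lamc1) and 3 lower (Col13a1, Lamb3 and Lamc3) of 37, where it called 12.8% and 9.96% of all genes. Without control replicate 2 it called 6 higher (Col27a1, Col4a1, Col4a2, Col8a1, Lama5 and Lamc1) and 8 lower (Col14a1, Col25a1, Col4a3, Col5a1, Col5a3, Lama1, Lamb3 and Lamc3), where it called 12.4% and 12.2% of all genes. The chains called higher in both of these fits were Col4a1, Col4a2, Col8a1, Lama5 and Lamc1, and those called lower in both were Lamb3 and Lamc3. Without extract replicate 1 it called 0 chains in either direction, with 1.61% and 0.929% of all genes, and without extract replicate 2 it called Lama5 alone, with 2.15% and 1.17% of all genes. In these fits the group left with a single library is assumed to vary like the other, and the extract pair was the closer one: the chi-square of counts per degree of freedom was 30.7 between the extract libraries and 125 between the controls.

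**Figure D5:**
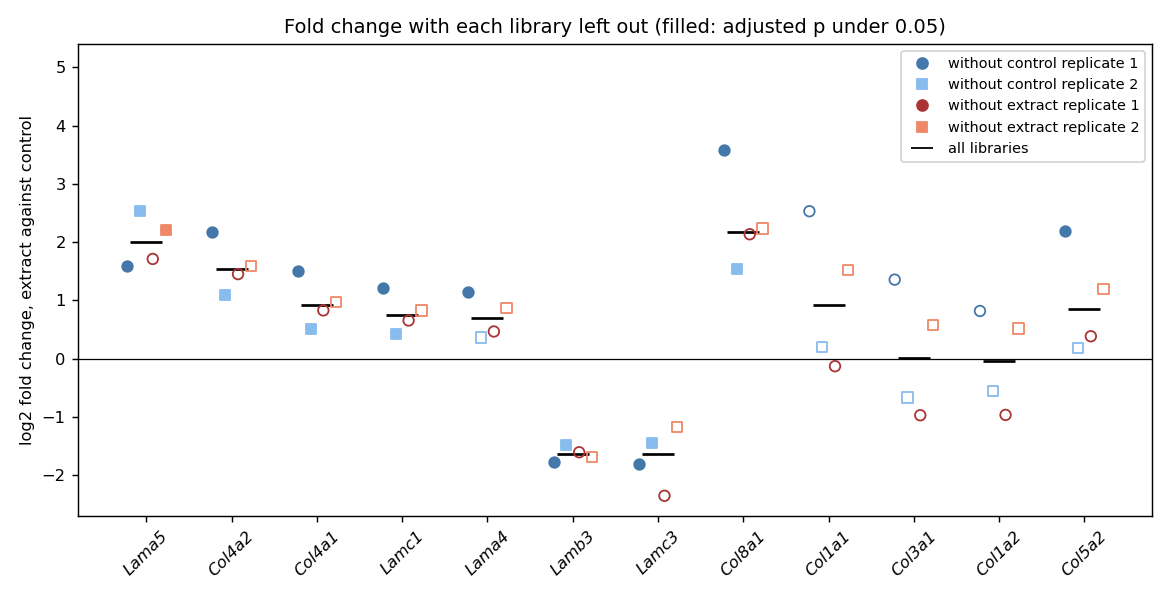
Log2 fold change of 12 chains with each library left out in turn, where filled symbols have an adjusted p under 0.05 in that edgeR fit and the black bar is the value with all libraries. Lama5, Col4a2, Col4a1, Lamc1, Lama4 and Col8a1 stay above 0 and Lamb3 and Lamc3 below 0 in every fit, whereas Col1a1, Col3a1 and Col1a2 change sign.

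GC content moved with the fold change over all genes. Spearman's rho of the log2 fold change with exon GC content was 0.12 across 13742 genes and -0.06 across the 38 chains, as a description, since genes are not independent replicates. The median log2 fold change ran from -0.08 among genes with under 40% GC to 0.18 among those with over 60%. With a GC correction edgeR called 4.78% of genes higher and 3.81% lower. Lama5 then had a log2 fold change of 1.89 and an adjusted p of 0.0268, and was again the sole chain called.

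Genes that fold, process and crosslink collagen gave 1 call higher and 2 lower of 29 tested, beside 4.91% and 3.63% of all genes. P4ha2, a proline hydroxylase subunit, rose, at 2.52 and 4.04 CPM in controls and 10.3 and 9.44 CPM with extract (log2 fold change 1.60, edgeR's adjusted p 0.0217), and was not called with either extract library left out. Loxl4, a lysyl oxidase that crosslinks matrix, fell from 31.3 and 43.5 CPM to 3.69 and 3.06 CPM (log2 fold change -3.47, edgeR's adjusted p 0.000647), and was called in all 4 leave-one-out fits. Pcolce2, an enhancer of procollagen cleavage, fell from 2.75 and 2.42 CPM to 0.232 and 0.021 CPM (edgeR's adjusted p 0.0275). It was not called without extract replicate 2. Its level in extract replicate 2 lay below the 0.063 CPM that 0 counts allow there, so the size of its fall is poorly measured. Bmp1, the procollagen C-proteinase, was lower in both extract libraries and did not pass in edgeR, with a log2 fold change of -0.54, and DESeq2 called it lower. A fit with a single extract library takes its spread from the control pair. A call lost in such a fit, here or in the lists below, therefore cannot show what the call rests on.

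Other basement membrane proteins gave 1 call higher and 1 lower of 12 tested, beside 4.91% and 3.63% of all genes. Tinagl1, a secreted matrix protein, rose from 28.4 and 26.8 CPM to 65.5 and 65.9 CPM (log2 fold change 1.25, edgeR's adjusted p 0.00336), and was called in all 4 leave-one-out fits. Ntn4, a netrin that binds laminin gamma chains, fell from 8.07 and 5.89 CPM to 2.92 and 2.04 CPM (edgeR's adjusted p 0.0361), and was not called with either extract library left out. Hspg2, which encodes perlecan, and Smoc1 were higher in both extract libraries with log2 fold changes of 0.98 and 0.41 and did not pass in edgeR, and DESeq2 called Hspg2 higher.

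Collagen and laminin receptors gave 2 calls higher and 0 lower of 12 tested, beside 4.91% and 3.63% of all genes. Of the 12, 9 were higher and 1 lower in both extract libraries, beside 27.6% and 26.7% of all genes. DESeq2 called 5 higher and 0 lower, beside 7.11% and 6.29% of all genes. Bcam, a receptor for laminin alpha 5, measured 8.71 and 4.44 CPM in controls and 28.6 and 24.7 CPM with extract, with a log2 fold change of 2.01 (edgeR's adjusted p 0.0168), and was called in all 4 leave-one-out fits. Itga6, a laminin-binding integrin chain, measured 7.69 and 5.18 CPM in controls and 20.4 and 13.0 CPM with extract, with a log2 fold change of 1.37 (edgeR's adjusted p 0.0402), and was not called without extract replicate 1. Itga3, another laminin-binding chain, and Ddr1, a collagen receptor kinase, had log2 fold changes of 0.72 and 1.85 and did not pass in edgeR, at adjusted p of 0.0645 and 0.0707, whereas DESeq2 called both higher. Genes of the TGF-beta pathway, which induces fibrillar collagens, gave 0 calls of 10 tested in edgeR, with 1 higher and 1 lower at an unadjusted p under 0.05, beside 12.3% and 11.2% of all genes, and 1 called higher by DESeq2. Tgfbr2, a receptor of that pathway, had a log2 fold change of 0.89 with an adjusted p of 0.0737 in edgeR.

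Markers of the cells that make these chains differed between the groups as well. For comparison, edgeR called 4.91% of all genes higher and 3.63% lower. Of all genes, 27.6% were higher and 26.7% lower in both extract libraries. Vascular endothelial markers summed to 157 and 136 CPM in controls and 290 and 260 CPM with extract, with 7 called higher and 1 lower of 11. Sinusoidal endothelial markers summed to 463 and 464 CPM against 262 and 258 CPM, with 8 of 12 called lower. In that list 9 were lower in both extract libraries, and 3 (Stab1, Gata4 and Lyve1) were higher in both and did not pass. Quiescent stellate cell markers summed to 767 and 556 CPM against 362 and 363 CPM, with 5 of 17 called lower. Activated stellate cell and myofibroblast markers summed to 162 and 105 CPM against 250 and 213 CPM, with 2 of 11 called higher. The 2 called were Lgals1 and S100a6, with log2 fold changes of 2.55 and 2.04. In the activated list 5 were higher and 0 lower in both extract libraries, with a median log2 fold change of 0.73. Tagln (14.4 and 8.08 CPM against 25.3 and 14.6 CPM) and Tpm2 were among the 5. Neither passed in edgeR, at adjusted p of 0.262 and 0.466. Vim, at 49.7 and 20.8 CPM against 79.6 and 64.9 CPM, did not pass. Acta2 (log2 fold change 1.28) and Timp1 (0.727) overlapped and did not pass in edgeR, at adjusted p of 0.32 and 0.785. Postn, Pdgfra, Spp1 and Fap had log2 fold changes of 0.025, -0.057, -0.047 and -0.497. Portal fibroblast markers summed to 103 and 73.3 CPM against 193 and 138 CPM (2 of 11 called higher), and mesothelial markers to 266 and 227 CPM against 493 and 379 CPM (1 of 7 called higher), of which Krt8, a keratin that hepatocytes also make, gave 250 and 219 CPM against 486 and 375 CPM. Of the other mesothelial markers, 4 were lower in both extract libraries, 3 of them at an unadjusted p under 0.05 by edgeR, and the list's median log2 fold change was -1.18. The portal fibroblast sums were mostly Gas6 (60.4 and 50.6 CPM against 116 and 93.7 CPM) and Cd34 (3.33 and 1.11 CPM against 32.2 and 28.9 CPM), the 2 called, and the median log2 fold change of that list was 0.04. Cholangiocyte markers summed to 40.7 and 35.7 CPM against 37.5 and 31.1 CPM, with overlap, but their members went both ways: of 8, 3 were higher and 3 lower in both extract libraries, with Tspan8 called higher and Sox9 called lower (edgeR's adjusted p 0.0435 and 0.0266). Smooth muscle markers summed to 89.7 and 123 CPM against 125 and 102 CPM, with overlap, and 0 of 8 were called in edgeR. The smooth muscle sums were mostly Mylk (57.7 and 107 CPM against 84.3 and 78.2 CPM). Of the 8, 2 were higher and 0 lower in both extract libraries, with a median log2 fold change of 0.64. Kupffer cell markers summed to 612 and 498 CPM against 54.6 and 50.7 CPM (9 of 10 called lower). Markers of T, B and NK cells summed to 19.6 and 5.02 CPM against 2.67 and 3.36 CPM, with 0 of 9 called in edgeR. Of these 9, 6 were lower in both extract libraries, and the median ratio of control replicate 1 to control replicate 2 was 2.25. Adipocyte markers summed to 14.8 to 20.4 CPM and red blood cell markers to 21 to 36.4 CPM over the 4 libraries. At 0 in every library were 1 adipocyte and 2 red blood cell markers, and 0 markers of the other lists. Cd34 stands in both the vascular endothelial and the portal fibroblast list. The part of these cell markers in the levels of Lama5, the type IV pair or the other chains was not tested.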

How the data were processed

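Liver RNA of 4 libraries was sequenced. The submitters' processing notes name CASAVA 1.8, HISAT2 2.1.0, HTSeq and the mm10 build, without roles. The annotation and strand setting are not stated there. The authors deposited 1 raw count per gene symbol and library, whole numbers with no normalization. The 5 closing rows of each file that name no gene (17.2%, 22%, 16.5% and 17.4% of records for control replicates 1 and 2 and extract replicates 1 and 2) stayed out of library sizes and tests.

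Groups follow the sample titles. The fit used edgeR 4.0.16 under R 4.3.3 (filterByExpr, TMM scaling, robust quasi-likelihood, 2-sided), with Benjamini-Hochberg adjustment across 13963 genes and calls at an adjusted p under 0.05. Standard errors are the log2 fold change divided by the square root of the F statistic. Alternatives were DESeq2 1.42.0, limma-voom (limma 3.58.1), other scalings and filters, leaving out each library, a replicate block and, added after seeing the data, a GC offset. A count of 0 allows 3 counts, for counting error only. The edgeR step was tested on simulated data.

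The chains and the lists of other genes were chosen with earlier results of these data known. A rule named Col1a1, Col1a2, Col3a1, Col4a1, Col4a2, Col6a1, Col15a1, Col18a1, Lama4, Lama5, Lamb1, Lamb2 and Lamc1, each chain past the threshold, and in each class the 4 with the smallest p-values (mean of at least 0.5 CPM) and the 3 highest per length, and from each other list the 4 with the smallest p-values (mean of at least 1 CPM). Positions and promoters are from RefSeq on GRCm38.p6. Levels per length used merged exons of GENCODE vM21, since the RefSeq table used here gives no exon lengths. Of the chains, 1 is counted among the 38 but not reported here by name or in the plots. Other choices named in the text were made after values were seen.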

Additional observations from a re-analysis of the deposited data

How the results depend on the processing

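Over 24 named chains and the alternatives run (383 pairs), 330 kept their direction and side of the threshold, 35 passed it only under the alternative and 17 changed sign. The remaining pair is Lama5 without extract replicate 1. Elsewhere Lama5 stayed past the threshold, with an adjusted p from 6.8e-15 to 0.0484.

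Basement membrane chains called higher numbered 3 with DESeq2, 2 with limma-voom, 2 without the robust step and 3 with the replicate block, with or without the GC offset, and those called lower 2 with DESeq2. Other chains called higher numbered 1 with DESeq2, with no filter on low counts and with the replicate block, and fibrillar chains called higher 1 with the replicate block, with or without the GC offset. Calls higher in the lists of folding, basement membrane, receptor and TGF-beta genes, 4 in all, became 9 with DESeq2, 8 with no filter, 9 with the replicate block and 7 with the block and the GC offset. DESeq2 called 910 of all genes lower, against 507. The cause was not tested.

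Leaving out a library moved calls higher and lower over 0 to 1 and 0 to 2 for fibrillar chains, 0 to 7 and 0 to 4 for basement membrane chains, 0 to 2 and 0 to 2 for other chains, 2 to 23 and 1 to 10 for the lists, and 233 to 1826 and 134 to 1782 for all genes. The lone library of a group is then assumed to vary like the others. The median log2 fold change ran from -0.29 to 0.414 for basement membrane chains, from -0.616 to 0.507 for fibrillar chains and from -0.817 to 0.325 for other chains.

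In the same fits the log2 fold change ran from -0.13 to 2.53 for Col1a1, -0.97 to 0.82 for Col1a2, -0.97 to 1.35 for Col3a1, -0.58 to 0.67 for Col6a1, -1.21 to 0.33 for Col6a2, -0.24 to 0.42 for Col15a1 and -0.20 to 0.56 for Lamb1. Under total counts it was 0.13 for Col1a2 and 0.065 for Col6a1. For Col3a1 it was -0.034 with upper-quartile scaling, -0.002 without the 20 most abundant genes and -0.005 with the GC offset.

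The labels number the libraries 1 and 2 in each group and say nothing of a shared animal, litter or day. Deviations of the same-numbered libraries correlated at 0.2 over all genes and 0.3 over the chains, with 2 pairs. With the replicate block 5 chains were called higher (Col1a1, Col4a2, Col6a5, Lama5 and Lamc1) and 0 lower, and 902 and 682 of all genes. Col1a1 then had a log2 fold change of 1.11 and edgeR's adjusted p of 0.0186. At these depths most chains are well counted, and chains under about 1 CPM rest on few counts.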
